A study of Mus musculus with 12 samples.

Results

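The conjugation enzymes of mouse liver described here are the protein-coding genes of the Ugt1, Ugt2 and Ugt3 (UDP-glycosyltransferase), Gst (cytosolic and mitochondrial glutathione transferase) and Sult (cytosolic sulfotransferase) families. They were taken by gene symbol and biotype from the deposited annotation, which gave 54 of the 25164 genes listed. By family these are 9 Ugt1a genes, 10 Ugt2 and Ugt3 genes, 4 Gsta genes, 7 Gstm genes, 10 other Gst genes and 14 Sult genes. Whole liver RNA was sequenced from 3 groups of mice with 4 libraries each, out of 10 mice assigned to each group. The Control group was kept on a diet named only as normal and the HFD group on a high-fat diet, both for 14 weeks. The HFD_fenofibrate group had 14 weeks of the high-fat diet too, with fenofibrate given by gavage from week 10 on, for 4 weeks. Fenofibrate lowers blood lipids and is known as an activator of the receptor PPARA. The labels name no strain, sex or age. They do not say whether the untreated mice received a vehicle by gavage, so drug and gavage cannot be told apart. Nor do they say how cages, dissections or sequencing runs were shared, so the tests weigh differences against the spread among these libraries only.

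Conjugation makes drugs, pollutants, steroids, bilirubin and bile acids more water-soluble so that they can leave in bile or urine. The Ugt enzymes sit in the endoplasmic reticulum and attach a sugar, mostly glucuronic acid from UDP-glucuronate. The Gst enzymes add glutathione to reactive electrophiles, including products of lipid peroxidation, and the Sult enzymes move a sulfonate group from PAPS (3'-phosphoadenosine-5'-phosphosulfate) onto phenols, steroids and bile acids. In liver, most of this work is done by hepatocytes, and the genes are known targets of the xenobiotic receptors AHR, CAR and PXR and of NRF2.

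Total counts per library ran from 15797016 to 18514481, and the members held 1.03% to 1.13% of them in the Control and HFD libraries and 0.851% to 0.993% with fenofibrate. Of the 54 members, 42 had enough reads to be tested, and the other 12 reached at most 14 reads in any library. The 12 hepatocyte markers gave sums of 140000 to 151000 CPM (counts scaled so that every library has the same total) for Control, 129000 to 139000 for HFD and 122000 to 139000 for fenofibrate. Of these 12, 0 rose and 1 fell with the diet (6.13% and 6.64% of all genes tested). With fenofibrate against HFD 1 rose and 4 fell (6.89% and 6.59% of all genes). Against Control 0 rose and 2 fell (4.86% and 4.31% of all genes). Fenofibrate libraries 1 and 3 stand apart. The 6 striated muscle markers summed to 162 and 122 CPM there, against at most 0.966 CPM elsewhere, where Ckm and Myh4 were at 0. Fenofibrate library 1 also had 2160 CPM over the 12 markers of pancreatic acinar cells, and the other 11 libraries 6.24 to 31.1 CPM, where Pnlip, Cpb1 and Prss2 were at 0. The same library held 1190 CPM of the 5 erythroid markers, against 202 to 484 elsewhere. The counts of members changed with fenofibrate are therefore given with and without libraries 1 and 3. The 8 pericentral hepatocyte markers gave 10200 to 11800 CPM for Control, 10100 to 11800 for HFD and 13500 to 15600 for fenofibrate, and the 8 periportal ones 4780 to 7350, 3730 to 5250 and 4610 to 5250. Single markers did not all follow these sums. With the diet 2 of 7 tested pericentral markers rose and 3 fell, and 1 of 8 periportal markers rose and 5 fell. With fenofibrate against HFD 1 of each list rose and 1 fell. Against Control 1 pericentral marker rose and 2 fell, and 0 periportal markers rose and 4 fell. The 7 B and plasma cell markers gave sums of 14.3 to 29.4 CPM (Control), 30.4 to 47 (HFD) and 14.2 to 25.4 (fenofibrate). The 5 intestinal epithelium markers found, among them Apoa4, which liver also makes, summed to 78.5 to 107, 145 to 197 and 112 to 134 CPM. These 2 lists were thus highest in HFD, as were Ugt3a1 and Sult2a8 below. The part of these marker shifts in the results below was not tested. In whole tissue, fewer cells of a type and less RNA per cell cannot be told apart.

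The high-fat diet was compared with the normal diet first. Gsta2, Gsta1, Ugt1a9, Gstm3 and Gstt3 each fell by more than 1 on the log2 scale in HFD livers, and Ugt3a1, Gstp3 and Sult2a8 rose. Of the 42 tested members, 3 rose and 10 fell (7.14% and 23.8%), where 6.13% of all 13477 genes tested rose and 6.64% fell. The median log2 change was -0.07 over the members and -0.02 over all genes. By family, 3 of 4 Gsta, 2 of 7 Gstm, 2 of 5 tested Ugt1a, 2 of 9 tested other Gst and 1 of 7 tested Sult genes fell, and 0 of the 10 Ugt2 and Ugt3 genes did (0 also at an unadjusted p under 0.05 by edgeR, and 0 by DESeq2). A gene is said to have risen or fallen where the adjusted p of edgeR's quasi-likelihood test (Benjamini-Hochberg over all genes tested) was under 0.05.

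Fenofibrate on the high-fat diet was then compared with the high-fat diet alone. Here the Ugt2 and Ugt3 genes were lower together: 9 of 10 fell, led by Ugt2b38, Ugt2b1, Ugt2b37 and Ugt2b5. Outside that family Gsta1 and Sult2a8 fell, and Gstt3, Gsto1 and Gstt2 rose. Of the 42 tested members, 3 rose and 11 fell (7.14% and 26.2%), where 6.89% of all genes tested rose and 6.59% fell. The median log2 change was -0.22 over the members, -0.81 over the Ugt2 and Ugt3 genes and 0.01 over all genes. Without fenofibrate libraries 1 and 3, 0 members rose and 2 fell (Ugt2b1 and Ugt2b38), with 0.398% and 0.500% of all genes called. That fit, which shares 1 estimate of the spread over the groups, left the diet counts at 3 risen and 10 fallen (5.26% and 5.04% of all genes). The HFD libraries enter both this comparison and the diet comparison, so changes of opposite sign in them are not independent.

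Fenofibrate on the high-fat diet was also set against the normal diet. Of the 42 members, 0 rose and 15 fell, where 4.86% of all genes tested rose and 4.31% fell, and 10 of the 15 were at least 2-fold lower. By edgeR at an unadjusted p under 0.05, 3 members were higher, and DESeq2 called 3 risen at its adjusted threshold. The fallen genes were 7 Ugt2 genes, Ugt1a9, 3 Gsta genes, 3 Gstm genes and Sult1a1. The median log2 change was -0.39 over the members and -0.01 over all genes. Without fenofibrate libraries 1 and 3, 8 fell (Gsta1, Gsta2, Gsta4, Gstm3, Ugt1a9, Ugt2a3, Ugt2b1 and Ugt2b38) and 1 (Gstp3) rose, with 1.56% of all genes called risen and 1.14% fallen.

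**Figure D1:**
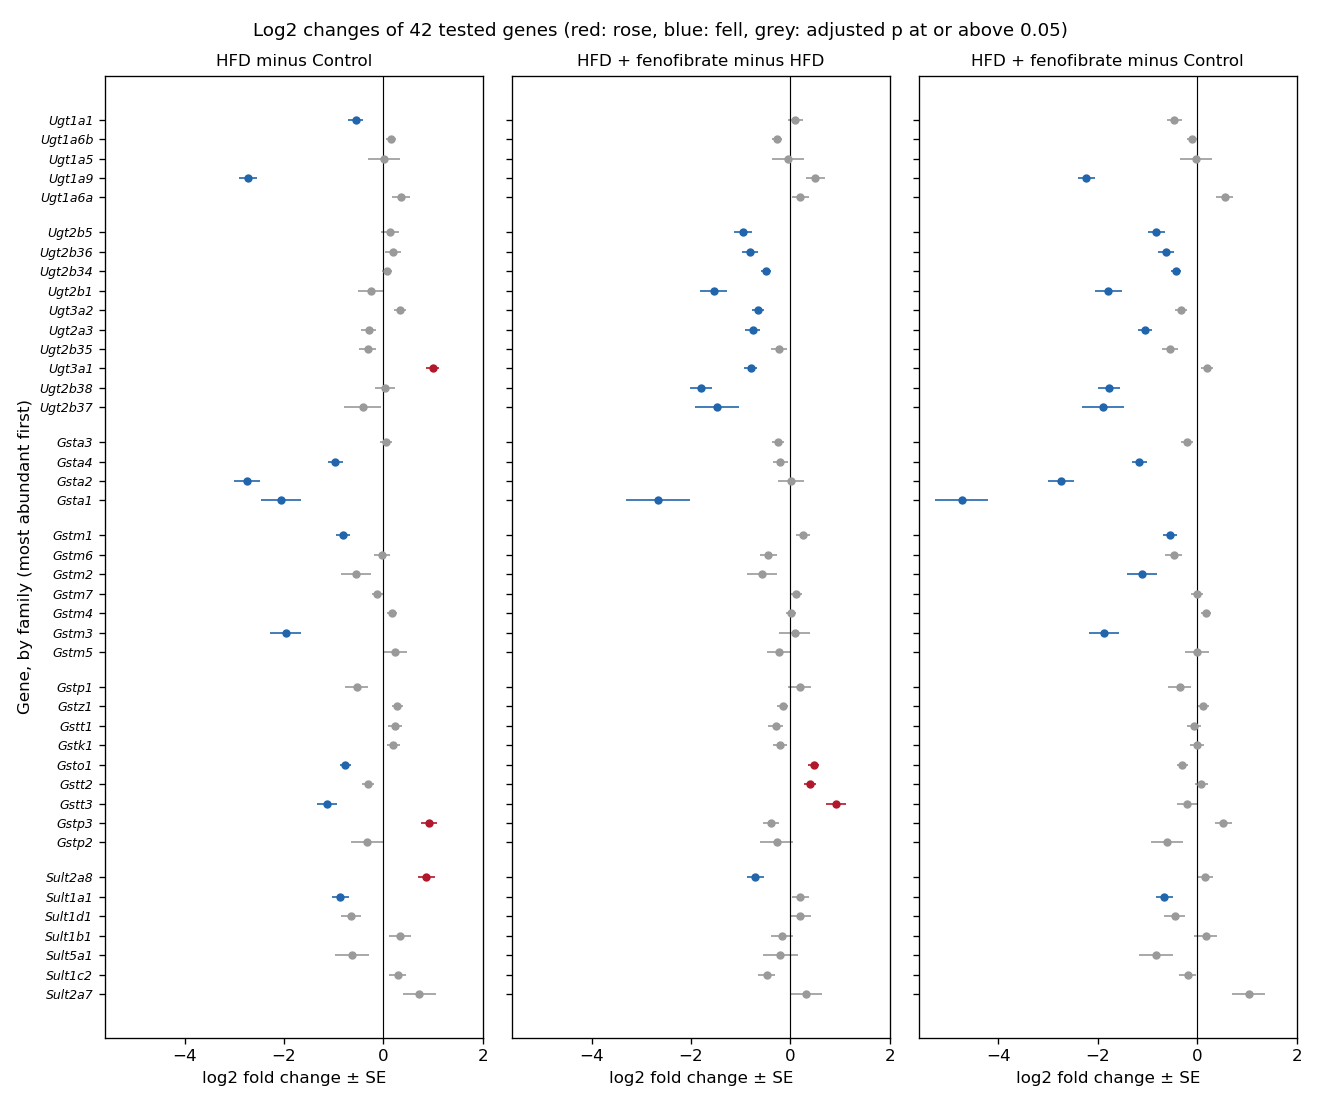
Log2 fold changes with their SE for the 42 tested genes (y axis, by family, most abundant first) in the 3 comparisons (panels; x axis in log2 units). Red marks genes that rose, blue genes that fell and grey those with an adjusted p of 0.05 or more; in the middle panel all 10 Ugt2 and Ugt3 points lie below 0, 9 of them blue.

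Levels are CPM after TMM scaling of library sizes, and log2 changes are given ± SE. Per kilobase of annotated exon, which allows genes to be compared, the highest mean levels over all 12 libraries were those of Gstm1 (843 CPM per kilobase), Gstp1 (482), Ugt2b5 (456), Ugt2b36 (339), Gsta3 (323), Sult1a1 (273) and Sult2a8 (234). The tested Ugt1a genes were lower, with Ugt1a1 at 16.3 CPM per kilobase and Ugt1a9 at 9.09. They share exons with each other and overlap those of Gm20528, a gene on the opposite strand. Per kilobase of exon that no other gene overlaps, the same counts give 93.9 for Ugt1a1 and 22.6 for Ugt1a9. Summed over genes, Ugt stood at 4329 ± 623 CPM in Control (SD, n = 4), 4447 ± 476 in HFD and 2570 ± 469 with fenofibrate. Gst stood at 5842 ± 324, 4840 ± 294 and 4735 ± 463 CPM, and Sult at 1482 ± 201, 1605 ± 171 and 1262 ± 274 CPM. The highest Ugt sum with fenofibrate (3040 CPM) was below the lowest sum in the other groups (3733 CPM). Of the reads of all members, Ugt held 37.1% (Control), 40.8% (HFD) and 29.9% (fenofibrate), while Gst held 50.3%, 44.5% and 55.5%.

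The Ugt2 genes are separate genes that arose by duplication, and their enzymes glucuronidate steroids, bile acids and many drugs. The 8 members lie in 1 cluster on chromosome 5 (GRCm38), from Ugt2b34, which starts at 86889767, to Ugt2b38, which ends at 87424203. Because most of them moved together with fenofibrate, the 150 bases before the start site of the most abundant ones (Ugt2b5, Ugt2b36 and Ugt2b1) and of Ugt2b38 are shown, from RefSeq (build GRCm38.p6), each on the minus strand of chromosome 5. Capitals mark AGTTATANNTTAAC, a run of 14 positions of which 12 are the same in all 4, found by comparing these sequences with each other.
Ugt2b5, chr5:87140341-87140490: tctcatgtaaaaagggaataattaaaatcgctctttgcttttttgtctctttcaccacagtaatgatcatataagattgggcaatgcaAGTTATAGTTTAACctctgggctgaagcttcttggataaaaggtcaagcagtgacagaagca
Ugt2b36, chr5:87092556-87092705: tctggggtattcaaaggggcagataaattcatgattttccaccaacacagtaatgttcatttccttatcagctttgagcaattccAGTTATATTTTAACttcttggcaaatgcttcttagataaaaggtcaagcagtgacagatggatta
Ugt2b1, chr5:86926504-86926653: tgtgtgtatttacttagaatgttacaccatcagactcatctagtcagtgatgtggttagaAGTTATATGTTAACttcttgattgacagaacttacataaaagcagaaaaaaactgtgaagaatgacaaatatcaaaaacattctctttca
Ugt2b38, chr5:87424204-87424353: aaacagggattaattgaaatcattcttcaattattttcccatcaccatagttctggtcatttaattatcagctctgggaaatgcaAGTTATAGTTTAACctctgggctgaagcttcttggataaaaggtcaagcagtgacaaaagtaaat

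Over these 150 bases Ugt2b5 and Ugt2b38 were 80% identical, and each was 73.3% identical to Ugt2b36, while Ugt2b1 was 59.3% to 62% identical to the others. The capitals end 48 bases before the RefSeq start site in Ugt2b5, 51 in Ugt2b36 and Ugt2b38, and 76 in Ugt2b1. The RefSeq start of Ugt2b1 lies inside the gene span given for it below, so the bases shown partly overlap that span. The pattern was in the 300-base window (250 bases before the start to 50 after) of 5 of 8 Ugt2 genes, Ugt2b37 being the fifth, and in 0.0152% of all 32851 promoters in the table, on either strand. Those are the same 5 promoters, and 4 of them were used to find the pattern, so its rarity elsewhere follows in part from how it was chosen. It was not in the windows of Ugt2a3 and Ugt2b34, which fell with fenofibrate, or of Ugt2b35, which did not pass against HFD or Control. As a search for known sites, the C/EBP pattern TTGCNNAA was in 4 of the 8 Ugt2 windows (Ugt2a3, Ugt2b1, Ugt2b36 and Ugt2b5) and in 10.8% of all promoters. In all, 9 known patterns were searched. The STAT5 pattern TTCNNNGAA, the antioxidant response element core TGACNNNGC and the PPAR-type direct repeat AGGNCANAGGNCA were among those in 0 of 8. Over all promoters their shares were 8.3%, 12.4% and 0.381%, so 0 of 8 windows says little about the Ugt2 genes. These are matches of letters only, on both strands.

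Ugt2b5 (ENSMUSG00000054630, chr5:87124960-87140318) is the most abundant Ugt gene of this liver. It stood at 804, 1212, 796 and 1008 CPM in the Control libraries, 1299, 1036, 914 and 936 CPM in HFD and 534, 666, 375 and 588 CPM with fenofibrate. All 4 fenofibrate values were below all 8 others, and Control and HFD overlapped. The log2 change was -0.95 ± 0.18 with fenofibrate against HFD (adjusted p = 0.00467) and 0.13 ± 0.18 with the diet (adjusted p = 0.689). Without fenofibrate libraries 1 and 3 the former was -0.73 (adjusted p = 0.0903).

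Ugt2b36 (chr5:87065927-87092555) showed the same order. Its levels were 595, 926, 677 and 806 CPM in Control, 985, 862, 822 and 758 CPM in HFD and 482, 597, 350 and 512 CPM with fenofibrate. No fenofibrate value reached the lowest HFD value, but 1 slightly exceeded the lowest Control value. It fell by 0.82 ± 0.16 on the log2 scale against HFD (adjusted p = 0.00579; change -0.62, adjusted p = 0.109 without libraries 1 and 3). Against Control the change was -0.63 (adjusted p = 0.0241), which was lost without Control library 2 or 4 or fenofibrate library 1 or 3 alone (adjusted p 0.0618 to 0.081).

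Ugt2b1 (ENSMUSG00000035836, chr5:86916638-86926530) had the largest log2 decrease with fenofibrate among these 3 abundant genes. It stood at 571, 779, 712 and 727 CPM in Control, 690, 657, 486 and 511 CPM in HFD and 150, 287, 92.7 and 274 CPM with fenofibrate. The fenofibrate values lay far below all others, and the 2 lowest came from libraries 1 and 3. The change against HFD was -1.54 ± 0.27 (adjusted p = 0.00333), and it was -1.06 (adjusted p = 0.0115) without those libraries. Against Control it was -1.80 ± 0.27 (adjusted p = 0.000956). None of its 50-base exon windows occurs unchanged in another gene's transcripts. Reads of its relatives placed with mismatches are not covered by that comparison.

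Ugt2b38 (ENSMUSG00000061906, chr5:87409942-87424203), a much less abundant member, had the largest log2 decrease of the family against HFD. It stood at 16.2, 24.4, 21.1 and 19.7 CPM in Control, 21.1, 31.2, 14.5 and 16.1 CPM in HFD and 4.50, 7.32, 5.84 and 6.26 CPM with fenofibrate. Control and HFD overlapped, and every fenofibrate value was below them. The change against HFD was -1.80 ± 0.22 (adjusted p = 0.000504) and -1.61 (adjusted p = 0.0169) without libraries 1 and 3. Against Control it was -1.77, where Ugt2b1 and Ugt2b37 had larger decreases. Of its 50-base windows, 37.4% also occur in other transcripts, most of them in those of Ugt2b5, so the split of reads between these genes is uncertain.

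Ugt2b37 (chr5:87240493-87254804) was near the detection limit, with 10, 24, 29 and 22 reads in Control, 12, 17, 8 and 26 in HFD and 8, 7, 6 and 6 with fenofibrate. As CPM these are 0.559, 1.56, 1.80 and 1.37, then 0.810, 1.001, 0.491 and 1.61, then 0.395, 0.420, 0.292 and 0.296. The fenofibrate libraries were lowest, yet HFD library 3 came close to them. Its change against HFD of -1.47 ± 0.44 had an adjusted p of 0.0381, which rose above 0.05 without any one of HFD libraries 1, 2 and 4 or fenofibrate libraries 1, 3 and 4 (0.0643 to 0.133). Against Control its change was -1.89 (adjusted p = 0.0117; 0.118 without fenofibrate libraries 1 and 3). Of its exon windows, 18.3% also occur in other transcripts, most often those of Ugt2b5. That gene had 7713 to 19244 reads per library, so some of the few reads given to Ugt2b37 are uncertain. How far the change of Ugt2b37 reflects reads of Ugt2b5 was not tested.

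The remaining Ugt2 genes moved less. Ugt2a3, the one Ugt2a gene among them, changed by -0.75 against HFD and by -1.05 against Control (adjusted p = 0.0055 and 0.000684). Ugt2b34 fell by 0.48 on the log2 scale against HFD, and by 0.42 against Control (adjusted p = 0.00792 and 0.017; the latter 0.0569 without Control library 4 and 0.061 without fenofibrate library 3). Ugt2b35 had a change of -0.23 (adjusted p = 0.37) against HFD and did not pass. Against Control its change of -0.55 missed the threshold (adjusted p = 0.0544), but passed by DESeq2 (adjusted p = 0.0238), without the low-count filter (0.0215) and without Control library 1 or 3 or HFD library 1 alone (0.0269 to 0.0402). In the fit without fenofibrate libraries 1 and 3, the changes of all 10 Ugt2 and Ugt3 genes against HFD stayed between -1.61 and -0.18. Further along chromosome 5 lie Sult1b1 and Sult1d1 (chr5:87513339-87538195 and chr5:87554645-87569027), which changed by -0.16 and 0.20 against HFD with adjusted p of 0.652 and 0.557.

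The Ugt3 genes Ugt3a1 and Ugt3a2 are neighbours on chromosome 15, and their enzymes use sugars other than glucuronic acid. Ugt3a1 (chr15:9273319-9315032) was the 1 Ugt gene of 15 tested that rose with the diet by edgeR (DESeq2 also called Ugt3a2, with an adjusted p of 0.0403), from 69.3 ± 12.3 CPM in Control to 138 ± 12.5 CPM in HFD (log2 change 0.99 ± 0.13, adjusted p = 0.000132). With fenofibrate it stood at 79.2 ± 9.56 CPM, a change of -0.80 ± 0.13 against HFD (adjusted p = 0.00188; -0.67 and 0.0604 without libraries 1 and 3) and of 0.19 against Control (adjusted p = 0.366). All 4 HFD values (128 to 155 CPM) were above all 8 others (59.3 to 91.7 CPM). Ugt3a2 fell by 0.65 on the log2 scale against HFD (adjusted p = 0.00395), and its diet change of 0.33 did not pass (adjusted p = 0.0866). About 7% of the 50-base windows of each gene occur in other transcripts (7.6% and 7.01%), mostly in those of the other.

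**Figure D2:**
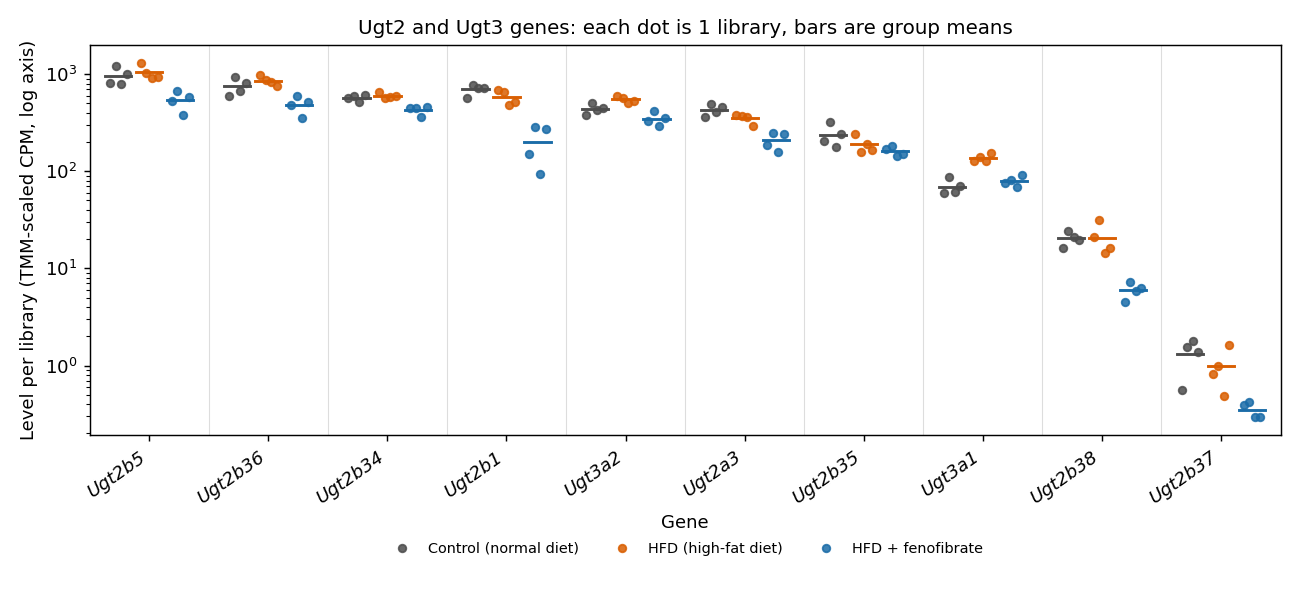
TMM-scaled CPM on a log axis (y) of the 10 Ugt2 and Ugt3 genes (x, most abundant first), with 1 dot per library and a bar at each group mean. The blue fenofibrate dots of Ugt2b1 (92.7 to 287 CPM) and Ugt2b38 (4.50 to 7.32 CPM) lie below all Control and HFD dots, while the orange HFD dots of Ugt3a1 (128 to 155 CPM) lie above all others.

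The Ugt1a genes share 1 locus on chromosome 1, in which each gene has its own first exon and promoter and all use the same downstream exons. Annotated exons of the members overlap each other, or those of Gm20528 on the opposite strand, over 50.3% to 82.7% of their bases. The labels do not say how reads in the shared exons were counted. Ugt1a9 and Ugt1a1 fell with the diet while Ugt1a5 and Ugt1a6a did not pass, and the 150 bases before each start are shown for that contrast (RefSeq, GRCm38.p6, plus strand). Capitals mark the aryl hydrocarbon response element core TNGCGTG, the letters that AHR with its partner is known to bind.
Ugt1a9, chr1:88070629-88070778: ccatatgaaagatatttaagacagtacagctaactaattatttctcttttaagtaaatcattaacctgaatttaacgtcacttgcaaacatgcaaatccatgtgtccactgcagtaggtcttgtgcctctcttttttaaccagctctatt
Ugt1a1, chr1:88211809-88211958: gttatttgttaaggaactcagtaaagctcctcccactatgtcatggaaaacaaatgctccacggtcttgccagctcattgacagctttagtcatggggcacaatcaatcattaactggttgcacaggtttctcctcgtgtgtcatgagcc
Ugt1a5, chr1:88165862-88166011: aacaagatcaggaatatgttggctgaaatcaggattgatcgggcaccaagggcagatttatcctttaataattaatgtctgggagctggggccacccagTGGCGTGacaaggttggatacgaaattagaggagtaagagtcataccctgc
Ugt1a6a, chr1:88134659-88134808: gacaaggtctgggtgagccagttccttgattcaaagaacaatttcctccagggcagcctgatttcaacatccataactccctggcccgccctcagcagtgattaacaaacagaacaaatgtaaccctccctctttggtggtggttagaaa

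These 4 sequences were 53.3% to 60% identical to each other. The core was in the 300-base windows of Ugt1a5, Gsta2 and Sult1d1, among 46 members with a promoter in the table, and in 5.07% of all promoters, on either strand. It ends 44 bases before the start in Ugt1a5, and these letters are not in the windows of Ugt1a9, Ugt1a1 and Ugt1a6a.

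Ugt1a9 (ENSMUSG00000090175, chr1:88070800-88218997), whose human counterpart acts on phenols and fatty acids, had the clearest diet change of the Ugt genes. It stood at 50.1, 40.1, 41.3 and 43.4 CPM in Control, 7.96, 4.24, 5.77 and 8.49 CPM in HFD and 10.1, 10.1, 10.3 and 6.80 CPM with fenofibrate. The Control libraries were all far above the other 8, and HFD and fenofibrate overlapped. The log2 change was -2.73 ± 0.19 with the diet (adjusted p = 6.22e-07) and -2.23 ± 0.18 with fenofibrate against Control (adjusted p = 4.84e-06). Against HFD the change with fenofibrate was 0.50 ± 0.19 and did not pass (adjusted p = 0.0873); without fenofibrate library 4 it was 0.63 (adjusted p = 0.0433).

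Ugt1a1 (chr1:88211959-88218997), the enzyme that conjugates bilirubin, changed less. It stood at 50.8, 54.9, 35.8 and 39.0 CPM in Control, 28.4, 27.6, 32.5 and 34.2 CPM in HFD and 38.0, 25.6, 37.3 and 30.1 CPM with fenofibrate. The lowest Control value was just above the highest HFD value. The diet change of -0.56 ± 0.15 (adjusted p = 0.0253) lost its call without Control library 1 or 2 or HFD library 1 or 2 (adjusted p 0.0655 to 0.0769).

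Ugt1a6b, of the phenol-conjugating Ugt1a6 pair, stood at 31.9, 37.1, 28.1 and 30.4 CPM in Control, 36.9, 37.3, 35.2 and 32.8 CPM in HFD and 29.7, 32.9, 26.0 and 29.4 CPM with fenofibrate. The 3 groups overlapped, and its changes of 0.16 with the diet and -0.27 with fenofibrate did not pass (adjusted p = 0.354 and 0.0861; the latter 0.0489 without fenofibrate library 2). Ugt1a5 ranged from 12.9 to 49.3 CPM within the HFD group alone and had changes of 0.01 and -0.04. Ugt1a6a had 5.16 to 6.72 CPM in Control and 7.08 to 10.1 CPM with fenofibrate, and this change of 0.55 missed the threshold (adjusted p = 0.0608). It passed without Control library 1, HFD library 1 or 4 or fenofibrate library 2 alone (adjusted p 0.031 to 0.048). It also passed by DESeq2 (0.0374) and in the fit to just the 8 libraries compared (0.0494). Ugt1a2, Ugt1a7c, Ugt1a8 and Ugt1a10 were not tested, with at most 7 reads in a library.

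The alpha class (Gsta) enzymes detoxify lipid peroxidation products, and Gsta1 and Gsta2 are near-copies on chromosome 9. Their upstream sequences (RefSeq, GRCm38.p6) are shown because both fell with the diet while only Gsta1 passed against HFD with fenofibrate. Capitals mark the aryl hydrocarbon response element core TNGCGTG.
Gsta2, chr9:78347146-78347295, minus strand: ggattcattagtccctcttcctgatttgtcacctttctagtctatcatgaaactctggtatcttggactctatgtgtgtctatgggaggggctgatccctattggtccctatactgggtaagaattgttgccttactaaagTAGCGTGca
Gsta1, chr9:78230519-78230668, plus strand: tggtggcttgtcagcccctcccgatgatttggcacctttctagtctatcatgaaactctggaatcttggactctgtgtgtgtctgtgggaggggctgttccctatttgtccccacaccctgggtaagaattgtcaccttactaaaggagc

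The 2 sequences were 84.7% identical, and the core ends 2 bases before the RefSeq start of Gsta2. That start lies within the gene span given next, so the bases shown are not those before the outermost start of Gsta2. Those of Gsta1 reach slightly into its own span. Gsta2 (ENSMUSG00000057933, chr9:78331018-78355788) stood at 74.3, 76.9, 87.1 and 73.2 CPM in Control, 8.44, 11.5, 18.5 and 7.62 CPM in HFD and 13.7, 16.6, 9.05 and 7.44 CPM with fenofibrate. Control lay apart from the other 8 libraries, which overlapped. The change was -2.75 ± 0.26 with the diet (adjusted p = 1.04e-05), 0.01 ± 0.26 with fenofibrate against HFD (adjusted p = 0.98) and -2.74 ± 0.26 against Control (adjusted p = 2.83e-05). Of its 50-base windows, 49.8% occur in other transcripts, mostly those of Gsta1, which had at most 41 reads in a library.

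Gsta1 (ENSMUSG00000074183, chr9:78230656-78242684) had few reads: 22, 37, 41 and 24 in Control, 6, 11, 8 and 4 in HFD and 1, 3, 1 and 0 with fenofibrate. In CPM this is 1.23, 2.40, 2.55 and 1.49, then 0.405, 0.648, 0.491 and 0.248, then 0.0494, 0.180, 0.0487 and 0. The 3 groups did not overlap. The change was -2.07 ± 0.40 with the diet (adjusted p = 0.00344) and -2.67 ± 0.64 with fenofibrate against HFD (adjusted p = 0.0162). At these counts the size of the latter depends on the prior count, and its adjusted p was 0.0578 without fenofibrate library 3 and 0.203 without libraries 1 and 3. Of its 50-base windows, 90.5% occur in other transcripts, mostly those of Gm3776, which itself had 0 to 12 reads per library, so its reads cannot be assigned with certainty.

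Gsta4 (chr9:78182774-78209349), the enzyme for 4-hydroxynonenal, a lipid peroxidation product, has no 50-base window in other genes. It stood at 92.4, 102, 119 and 103 CPM in Control, 58.8, 44.8, 64.2 and 45.5 CPM in HFD and 50.7, 56.1, 35.5 and 43.5 CPM with fenofibrate. Every Control value was above every other value. The change was -0.97 ± 0.15 with the diet (adjusted p = 0.000667), -0.20 with fenofibrate against HFD (adjusted p = 0.377) and -1.17 ± 0.15 against Control (adjusted p = 0.000328).

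Gsta3 (ENSMUSG00000025934, chr1:21240589-21265661) is the abundant alpha class gene of mouse liver and carried most of the class's reads. It stood at 1161, 1538, 1570 and 1546 CPM in Control, 1516, 1461, 1431 and 1597 CPM in HFD and 1181, 1473, 1063 and 1323 CPM with fenofibrate. The groups overlapped, with changes of 0.05 with the diet and -0.25 with fenofibrate (adjusted p = 0.854 and 0.176). The summed Gsta level was therefore 1638 ± 208, 1566 ± 64.1 and 1318 ± 187 CPM, although the other 3 members fell with the diet.

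The mu class (Gstm) genes lie together on chromosome 3 (107895821 to 108044894). Gstm1 (ENSMUSG00000058135, chr3:108012255-108017973), the most abundant Gst gene per kilobase, stood at 1959, 1473, 1697 and 1498 CPM in Control, 902, 776, 955 and 1139 CPM in HFD and 1251, 1209, 924 and 1124 CPM with fenofibrate. Control lay above both other groups, which overlapped. The change was -0.81 ± 0.14 with the diet (adjusted p = 0.00138), 0.26 ± 0.14 with fenofibrate against HFD (adjusted p = 0.217) and -0.56 ± 0.14 against Control (adjusted p = 0.0201). The last was lost without fenofibrate library 3 or 4 alone (adjusted p = 0.0774 and 0.0536) and without libraries 1 and 3 (0.148).

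Gstm3 (chr3:107963696-107969283) had the largest log2 decrease of the class. It stood at 43.7, 20.8, 60.1 and 24.5 CPM in Control, 8.91, 8.84, 6.75 and 13.6 CPM in HFD and 12.01, 10.8, 6.57 and 11.1 CPM with fenofibrate. Control was spread widely but did not overlap the other groups. The change was -1.97 ± 0.31 with the diet (adjusted p = 0.000696) and 0.09 ± 0.31 with fenofibrate against HFD (adjusted p = 0.879). Other transcripts hold 28.8% of its 50-base windows, most often those of Gm8834, and 18.9% of those of Gstm1, most often those of Gstm2-ps1, so some reads of each are uncertain.

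Gstm6, the second most abundant mu class gene, stood at 69.3, 81.2, 94.1 and 74.5 CPM in Control, 83.8, 76.6, 57.2 and 95.5 CPM in HFD and 55.0, 71.8, 41.3 and 61.7 CPM with fenofibrate. The groups overlapped, and the changes of -0.03 and -0.45 did not pass (adjusted p = 0.942 and 0.086; the latter 0.0375 without HFD library 3 and 0.0353 without fenofibrate library 2). Gstm2 passed against Control only in the fenofibrate comparison (-1.11 ± 0.30, adjusted p = 0.032; -0.68 and 0.288 without libraries 1 and 3), its HFD values running from 27.1 to 73.4 CPM. That call was also lost without any one of Control libraries 2, 3 and 4 or fenofibrate libraries 1 and 3. Gstm4, Gstm5 and Gstm7 did not pass in any comparison, with changes between -0.23 and 0.23.

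**Figure D3:**
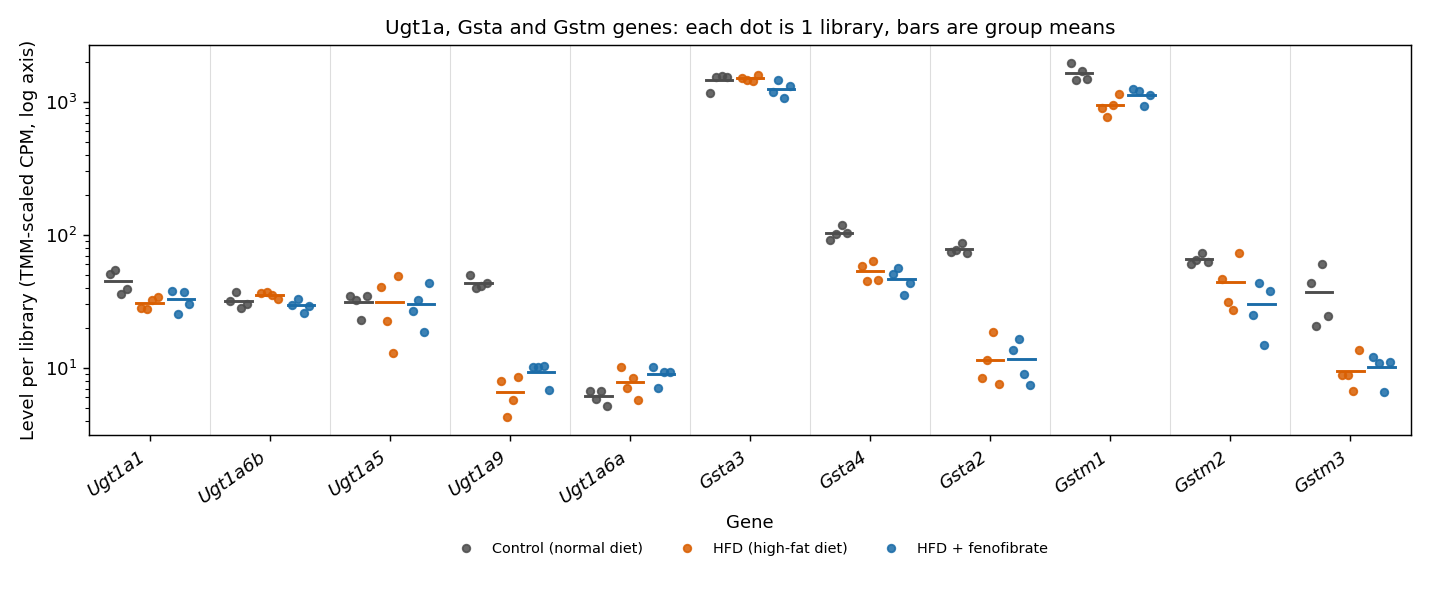
TMM-scaled CPM on a log axis (y) of Ugt1a, Gsta and Gstm genes (x), with 1 dot per library and a bar at each group mean. The grey Control dots of Ugt1a9 (40.1 to 50.1 CPM) and Gsta2 (73.2 to 87.1 CPM) stand above all HFD and fenofibrate dots, while those of Gsta3 lie among them.

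Of the theta and omega classes, Gstt3 and Gsto1 were lower with the diet and higher with fenofibrate than in HFD. Gstt3 (chr10:75774115-75781414), of the theta class, stood at 74.9, 35.5, 87.2 and 67.2 CPM in Control, 28.2, 26.9, 34.4 and 31.2 CPM in HFD and 54.1, 68.0, 49.6 and 57.8 CPM with fenofibrate. HFD lay below both other groups, though the lowest Control value nearly met the highest HFD value. The change was -1.13 ± 0.20 with the diet (adjusted p = 0.00186) and 0.93 ± 0.20 with fenofibrate (adjusted p = 0.00968), and the latter was 1.06 (adjusted p = 0.066) without libraries 1 and 3.

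Gsto1 (chr19:47854970-47864790), an omega class enzyme that reduces dehydroascorbate, went from 128 ± 8.08 CPM in Control to 75.3 ± 8.22 CPM in HFD and 104 ± 14.5 CPM with fenofibrate. The log2 changes were -0.77 ± 0.11 (adjusted p = 0.000515) and 0.47 ± 0.11 (adjusted p = 0.0168), and the latter was 0.35 (adjusted p = 0.241) without libraries 1 and 3. Without HFD library 2 alone its adjusted p was 0.0518, and without fenofibrate library 3 it was 0.0598. Gstt2 rose by 0.40 with fenofibrate against HFD (adjusted p = 0.0437), a call lost without any one of HFD libraries 2 and 4 or fenofibrate libraries 1, 3 and 4 (adjusted p 0.0796 to 0.133). The diet change of Gstt2 (-0.32) did not pass (adjusted p = 0.11). Against Control, the changes with fenofibrate were -0.21 for Gstt3, -0.30 for Gsto1 and 0.08 for Gstt2, and none passed.

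The pi class was led by Gstp1 (chr19:4035407-4037921), a male-biased enzyme of mouse liver. It stood at 1129, 761, 1013 and 720 CPM in Control, 751, 532, 762 and 447 CPM in HFD and 787, 779, 883 and 386 CPM with fenofibrate. The groups overlapped widely, and the changes of -0.54 with the diet and 0.19 with fenofibrate did not pass (adjusted p = 0.152 and 0.622). Its neighbour Gstp3 rose with the diet from 8.18 ± 1.13 to 15.4 ± 2.07 CPM (log2 change 0.92 ± 0.17, adjusted p = 0.00228) and stood at 11.8 ± 2.80 CPM with fenofibrate. No 50-base window of Gstp3 occurs in another gene, while 33.7% of those of Gstp1 do, mostly in Gstp2.

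Gstz1 (chr12:87147165-87164723) also acts as maleylacetoacetate isomerase in tyrosine breakdown. It stood at 551, 690, 702 and 693 CPM in Control, 854, 795, 771 and 780 CPM in HFD and 691, 844, 656 and 684 CPM with fenofibrate. All HFD values exceeded all Control values, but the change of 0.28 ± 0.11 did not pass by edgeR (adjusted p = 0.11). It passed by DESeq2 (adjusted p = 0.0456). The theta class gene Gstt1 and the kappa class gene Gstk1, whose enzyme is found in mitochondria and peroxisomes, had changes between -0.30 and 0.23 and did not pass in any comparison. Neither did Gstp2, and Gsto2 was not tested.

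Among the sulfotransferases, Sult2a8 and Sult1a1 changed in opposite directions with the diet. Sult2a8 (ENSMUSG00000030378, chr7:14410686-14446769), a bile acid sulfotransferase of mouse liver, stood at 391, 664, 652 and 641 CPM in Control, 1210, 1089, 1024 and 934 CPM in HFD and 555, 783, 535 and 743 CPM with fenofibrate. HFD lay above both other groups, which overlapped. The change was 0.86 ± 0.17 with the diet (adjusted p = 0.00386) and -0.70 ± 0.17 with fenofibrate against HFD (adjusted p = 0.0162). The latter was -0.48 (adjusted p = 0.25) without libraries 1 and 3, and its adjusted p was 0.0519 to 0.0626 without HFD library 1, fenofibrate library 1 or fenofibrate library 3 alone.

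Sult1a1 (chr7:126672865-126676432), the main phenol sulfotransferase, stood at 471, 585, 589 and 621 CPM in Control, 361, 261, 255 and 366 CPM in HFD and 291, 475, 288 and 378 CPM with fenofibrate. Control lay above HFD throughout. The change was -0.86 ± 0.17 with the diet (adjusted p = 0.00377), 0.20 with fenofibrate against HFD (adjusted p = 0.439) and -0.66 ± 0.17 against Control (adjusted p = 0.0237). The last was -0.40 (adjusted p = 0.313) without libraries 1 and 3, and was also lost without Control library 2, 3 or 4 alone or fenofibrate library 1 or 3 alone (adjusted p 0.0501 to 0.0853).

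Sult1d1, which acts on catecholamines, had 281 ± 64.6 CPM in Control and 179 ± 33.2 CPM in HFD. Its diet change of -0.65 ± 0.21 missed the threshold (adjusted p = 0.0541). It passed without Control library 2, HFD library 1 or fenofibrate library 2 alone (adjusted p 0.0157 to 0.0418). It also passed by DESeq2 (0.0265), without the low-count filter (0.0189) and in the fit to just the 8 libraries compared (0.0372). Sult1b1, Sult1c2, Sult2a7 and Sult5a1 did not pass in any comparison, Sult2a7 being closest with a change of 1.04 ± 0.33 against Control (adjusted p = 0.0644). That change passed without HFD library 1 (adjusted p = 0.0329), by DESeq2 (0.0309), without the low-count filter (0.0347) and with just the 8 libraries compared (0.0403). The other 7 Sult genes were not tested. Among them Sult1e1, the estrogen sulfotransferase, had 7 to 13 reads per Control library, 2 to 4 per HFD library and 4 to 14 per fenofibrate library. Sult2a1, Sult2a2, Sult2b1, Sult4a1 and Sult6b1 had at most 5 reads in a library, and Sult3a1 at most 8.

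**Figure D4:**
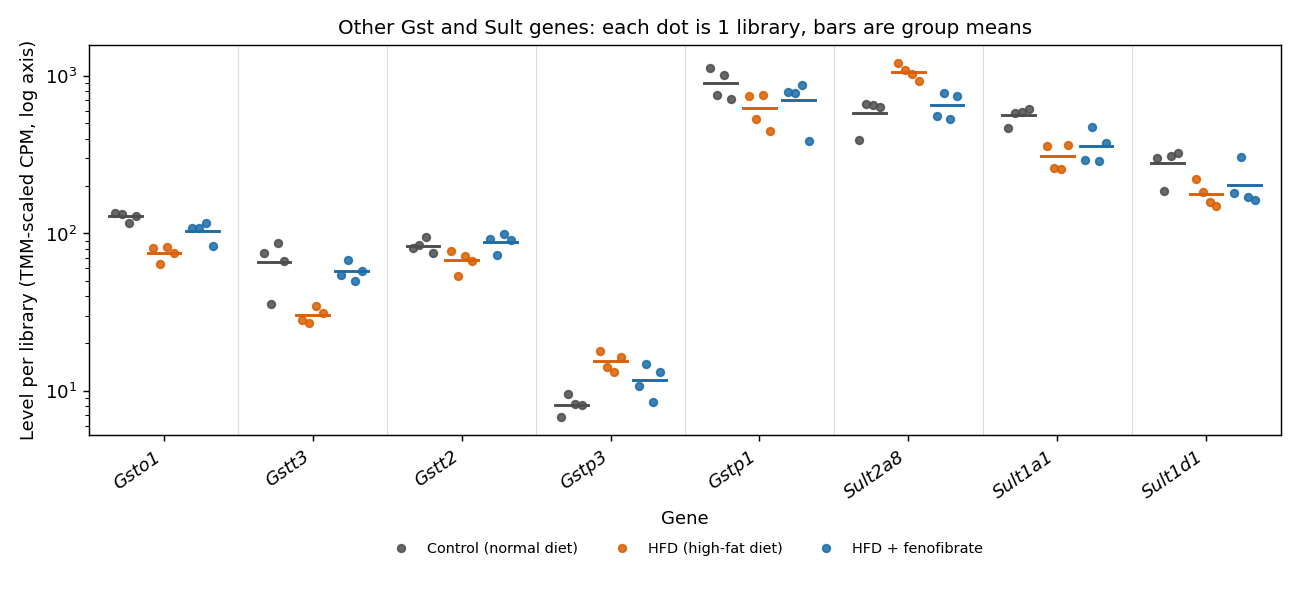
TMM-scaled CPM on a log axis (y) of theta, omega and pi class Gst genes and of Sult genes (x), with 1 dot per library and a bar at each group mean. The orange HFD dots lie lowest for Gsto1 and Gstt3 and highest for Sult2a8 (934 to 1210 CPM), while the groups overlap for Gstp1.

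Genes that work with these enzymes were read from the same fit. Of 20 tested enzymes of other conjugation routes or related reactions, 3 rose and 4 fell with the diet (15% and 20%, against 6.13% and 6.64% of all genes tested). They were led by Ptgds, a prostaglandin D synthase (-1.96 ± 0.42, adjusted p = 0.00634), Nnmt, the nicotinamide methyltransferase (-1.80 ± 0.19, adjusted p = 2.4e-05), and Keg1, a glycine N-acyltransferase-like gene (0.997 ± 0.22, adjusted p = 0.00831). With fenofibrate against HFD, 1 rose and 7 fell (5% and 35%, against 6.89% and 6.59% of all genes), led by Keg1 (-1.16) and Glyat, the glycine N-acyltransferase (-1.05), which fell, and As3mt, the arsenic methyltransferase (0.73), which rose. Without libraries 1 and 3, 0 rose and 1 fell, and neither Keg1 (log2 change -0.96) nor As3mt (0.75, adjusted p = 0.06) passed. Against Control 1 rose and 5 fell (5% and 25%, against 4.86% and 4.31% of all genes), led by Ptgds (-3.08), Nnmt (-1.27) and Nat8 (-1.19), and 0 and 3 without libraries 1 and 3.

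Cofactor supply was followed through 18 tested genes that make or use up UDP-glucuronate, PAPS and glutathione. With the diet 4 rose and 1 fell (22.2% and 5.56%, against 6.13% and 6.64% of all genes). Chac1 and Chac2, which break down glutathione, changed by 1.62 ± 0.32 and 1.11 ± 0.15, and Ugp2, which makes UDP-glucose, went from 256 to 498 CPM (0.96 ± 0.11, adjusted p = 4.98e-05). With fenofibrate against HFD, 0 rose (1 by edgeR at an unadjusted p under 0.05, 0 by DESeq2) and 3 of the 18 (16.7%, against 6.59% of all genes) fell, namely Gclc, the catalytic subunit of the first enzyme of glutathione synthesis (-0.74, adjusted p = 0.0216), Ugp2 (-0.59, adjusted p = 0.00414) and Chac2 (-0.54, adjusted p = 0.0279). None of these 3 passed without libraries 1 and 3 (adjusted p = 0.213, 0.0883 and 0.358), and the calls of Gclc and Chac2 were lost without HFD library 1 or fenofibrate library 3 alone, that of Chac2 also without fenofibrate library 1 (adjusted p 0.0734 to 0.104). Against Control 3 rose and 1 fell (16.7% and 5.56%, against 4.86% and 4.31%), led by Chac1 (1.26), Ugdh, which makes UDP-glucuronate (-0.65), and Chac2 (0.58). Without libraries 1 and 3, 1 (Chac2) rose and 0 fell, with an adjusted p of 0.0931 for Chac1, 0.107 for Ugp2 and 0.365 for Ugdh. The call of Chac1 was lost without Control library 3 or fenofibrate library 4, that of Chac2 without Control library 2 or fenofibrate library 2 or 4, and that of Ugdh in 8 of the 12 fits that left out 1 library and in the fit to just the 8 libraries compared (adjusted p = 0.0766).

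Of 11 tested genes that split conjugates or export them, 1 rose and 4 fell with the diet (9.09% and 36.4%, against 6.13% and 6.64% of all genes). Dpep1, a dipeptidase of glutathione conjugates, changed by -1.12, Ggt6 by -0.79 and Abcg2, an exporter of sulfated compounds, by 0.73. With fenofibrate against HFD, 2 rose and 1 fell (18.2% and 9.09%, against 6.89% and 6.59%): Ggt6 (0.72), Gusb, the beta-glucuronidase (0.46), and Abcg2 (-0.93). Abcg2 alone passed without libraries 1 and 3, and the Gusb call was also lost without HFD library 1 or 2 or fenofibrate library 1 or 3 alone (adjusted p 0.05 to 0.0638). Against Control 0 rose and 0 fell at the adjusted threshold, with or without libraries 1 and 3, and the 2 most abundant, the exporters Abcc2 and Abcc3, had changes of -0.05 and -0.16. Both counts were also 0 by edgeR at an unadjusted p under 0.05 and by DESeq2. The Dpep1 diet call was lost without Control library 3 or 4 or HFD library 2 or 3 alone (adjusted p 0.0504 to 0.0896) and in the fit to just the 8 libraries compared (0.0537).

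Among 18 tested regulators, 2 rose and 1 fell with the diet (11.1% and 5.56%, against 6.13% and 6.64% of all genes tested), and also with fenofibrate against HFD (against 6.89% and 6.59%), counts of 1 or 2 genes that lie near the share of all genes. Cux2, a sex-biased repressor of liver genes, went from 16.3 CPM in Control to 0.401 in HFD (-5.31 ± 0.47, adjusted p = 6.07e-06), and Nr3c1, the glucocorticoid receptor, changed by 0.54 ± 0.09 (adjusted p = 0.000958). Nr1i3, which encodes CAR, changed by 0.36 ± 0.11 (adjusted p = 0.0446). It did not pass without the low-count filter (adjusted p = 0.0693) or without any 1 of Control libraries 1, 3 and 4, the 4 HFD libraries and fenofibrate library 2 (adjusted p 0.0523 to 0.131). With fenofibrate against HFD these were Cux2 (4.93, to 12.5 CPM), Mafg, a small Maf partner of NRF2 (0.38), and Nr3c1 (-0.42). Without libraries 1 and 3 Cux2 alone passed, with an adjusted p of 0.234 for Mafg and 0.143 for Nr3c1. The Mafg call was also lost without any 1 of HFD libraries 1, 2 and 4 and fenofibrate libraries 1, 3 and 4 (adjusted p 0.0539 to 0.105). Against Control 3 rose (16.7%, against 4.86% of all genes) and 0 fell (0 also by edgeR at an unadjusted p under 0.05 and by DESeq2), with the same counts without libraries 1 and 3, the risen being Bcl6, a repressor (1.78), Ahr (0.58) and Nr1i3 (0.57). Nfe2l2 (NRF2), Nr1i2 (PXR), Ppara and Stat5b did not pass in any of the 3 comparisons.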

How the data were processed

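Each deposited table gives, per the file headers, unnormalised whole-number counts for the genes of 8 libraries, and the 4 HFD libraries stand in both with 0 differing values. HISAT2 2.0.5, StringTie 1.3.2d and HTSeq 0.6.0 are named in the submitters' processing notes (the sources used here do not state a strand setting or an annotation release). Those notes list builds mm8 and mm9, but 92.5% of 25113 identifiers have their GRCm38 position in GENCODE M21, as have 49 of the 54 members, so positions are read as GRCm38.

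The tables were joined by gene identifier, with a gene missing from one given counts of 0 there (22657 genes in both, 1389 only with fenofibrate, 1118 only with the diet). edgeR 4.0.16 in R 4.3.3 kept 13477 genes (filterByExpr, 99.87% of counts), scaled by TMM and fitted quasi-likelihood models to all 12 libraries, with group as the only term; adjusted p is Benjamini-Hochberg over all genes tested. SE is the log2 change divided by the square root of F. The prior count was 0.125 and the common biological coefficient of variation 0.155. Libraries of a group differed by more than sampling noise in all 18 pairs. Replicate numbers were not taken as pairs. Windows of 50 bases of GENCODE M21 transcripts were compared between genes. RefSeq promoters were found for 46 members.

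Values in every library are given for the 2 most abundant genes of each family and for genes that passed with a log2 change of at least 1 in the diet or the fenofibrate against HFD comparison; other passing members are named with their change. Of the lists of partner genes, up to 3 passing genes with the largest change are named. One further gene of the regulator list was left out of its counts and is not reported here. The members and lists were chosen with earlier results of these data known.

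Simulated counts with 200 changed genes, fewer than were called in these data, were used as a test. The changed genes were drawn from those with a mean above 20 reads per library. The rates found do not cover genes with fewer reads, such as Gsta1 and Ugt2b37. Of 4-fold changes the fit found 100% (diet, 13326 genes), 98.5% (fenofibrate minus HFD, 13320 genes) and 100% (fenofibrate minus Control, 13320 genes). Of 2-fold changes it found 88.1%, 88.1% and 86.6%, and of 1.5-fold changes 46.3%, 41.8% and 50.7%, in that order. Unchanged genes made up 6.59%, 1.94% and 4.82% of its calls. Alternatives were DESeq2 1.42.0, RLE scaling, other filters, scaling without the 20 most abundant genes, fits to just the 8 libraries of a comparison, a block for replicate number and each library left out; the fit without fenofibrate libraries 1 and 3 was added after the data were seen.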

Additional observations from a re-analysis of the deposited data

Results flagged for a closer look

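In 28 members and the 3 sums over the Ugt, Gst and Sult genes, 93 groups of 4 libraries were looked at for 1 library far from the other 3 (by Dixon's gap over range at its 95% level), and 5 groups had one; chance alone gives about 1 in 20. Control library 1 was low in 3 genes. It held 1161 CPM of Gsta3, against 1538 to 1570 CPM in the other Control libraries, 550.8 CPM of Gstz1, against 690.2 to 702.1 CPM, and 391.1 CPM of the bile acid sulfotransferase gene Sult2a8, against 640.6 to 663.5 CPM. Fenofibrate library 4 held 6.8 CPM of Ugt1a9, where libraries 1 to 3 held 10.08 to 10.32 CPM. Fenofibrate library 3, 1 of the 2 libraries with striated muscle transcripts, held 360.6 CPM of Ugt2b34, against 446.6 to 454.2 CPM.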

How the results depend on the processing

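Of 42 passing log2 changes of members over the 3 comparisons, 20 passed in all 20 other settings, 20 lost the call in at least 1, and 2 (Gsta1 with the diet and against Control) passed in all but the filter of mean 1 CPM, which left Gsta1 out; 0 passing changes turned sign in a setting. Of 84 that did not pass, 17 passed in at least 1 setting. With the diet, the count of risen members was 5 by DESeq2, and leaving out 1 library gave 3 to 3 risen and 9 to 11 fallen. For fenofibrate against HFD, leaving out 1 library gave 1 to 3 risen and 8 to 14 fallen, and leaving out fenofibrate libraries 1 and 3 gave 0 and 2. For fenofibrate against Control, the count of risen members was 1 without the low-count filter, 2 with the 8 libraries compared alone, 3 by DESeq2 and 1 without fenofibrate libraries 1 and 3, which left 8 fallen; leaving out 1 library gave 0 to 2 risen and 10 to 18 fallen. The fit without both libraries has fewer samples, and fewer of all genes passed in it. With the replicate number as a block, 3 rose and 11 fell with the diet, 3 and 10 with fenofibrate against HFD, and 1 and 15 against Control. Ugt2b37 lost its call against HFD (adjusted p = 0.0547). Gstp1 (diet, -0.56, adjusted p = 0.0226) and Ugt1a6a (against Control, 0.56, adjusted p = 0.0378) gained one. Of the partner genes named, Mafg (adjusted p = 0.0522, against HFD), Dpep1 (0.055, diet), Abcc3 (0.0526, diet) and Ugp2 (0.0537, against Control) lost theirs. The numbers are not said to mark a shared litter or day, and same-numbered libraries had r from -0.175 to 0.139 over 12 pairs after group means were removed. Depth limits the 12 untested members and Gsta1 and Ugt2b37, whose counts were low.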

Other observations

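Sult3a1, an amine sulfotransferase gene on chromosome 10, was too low for the test in the report, with 0 to 2 reads per Control library, 0 to 1 per HFD library and 2 to 8 per fenofibrate library. In the edgeR fit without the low-count filter its change against HFD had an adjusted p of 0.0337, and against Control of 0.14. It was singled out after its values were seen, and at these counts no fold is given. Sult1e1, in the same fit, had an adjusted p of 0.113 with the diet and 0.37 with fenofibrate against HFD.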
